A study of Mus musculus with 10 samples.

Results

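The constitutive proteasome is the protein-degrading complex that nearly every cell makes without prior stimulation, and its genes were followed here in 10 B16 tumors. Members were all mouse genes whose symbol is Psma, Psmb, Psmc, Psmd, Psme or Psmg followed by a number. The interferon-inducible genes Psmb8, Psmb9, Psmb10, Psme1 and Psme2 were left out. The rule found 42 genes among the 18193 measured, and it used no difference between the genotypes. They make up the core (14 genes), the cap (17), the assembly factors (7), the alternative activators (2) and 2 tissue-restricted members.

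RNA of whole tumors was measured on Affymetrix expression arrays, 5 labelled wild type and 5 labelled Bach2-deficient, all on the C57BL/6 background. B16 is a transplantable mouse melanoma line, and Bach2 encodes a transcriptional repressor of lymphocytes. The design text speaks of Bach2-deficient mice and asks about immunosuppression within tumors. The labels give no age, sex, deleted part of Bach2 or batch, nor do they say that each tumor grew in its own mouse. The p-values are thus set against differences among these arrays alone, and those may be technical.

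In the core, outer rings of alpha subunits gate a barrel whose inner rings of beta subunits hold the cutting sites. The cap binds ubiquitin-tagged proteins, its lid removes the ubiquitin, and the ATPases of its base unfold the protein and push it into the core. Chaperones assist the building of both. Interferon-γ is known to induce another set of catalytic beta subunits, which take the places of the constitutive ones in newly made particles and alter the peptides offered on MHC class I.

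Most constitutive genes differed little between the genotypes. Of the 42 members, 5 rose in the Bach2-deficient tumors (Psma4, Psmb2, Psmd3, Psme4 and Psma8) and 1 fell (Psmg1), at a limma adjusted p under 0.05 over all 18193 genes. That is 14.3% of the members, where 28.7% of all genes were called (16.3% rose and 12.4% fell). The median change of the members was 0.00 on the log2 scale, with a range from -0.68 to 0.99, against a median of -0.06 over all genes. No member changed by 1 or more (0 of 42), and 34 of the 42 changed by less than 0.25 in size. Of all genes, 44.1% did so. The counts moved when 1 array was left out, for the members and for all genes. Without wild-type replicate 3 or Bach2-deficient replicate 1, 3 or 4, 3 members rose, and without Bach2-deficient replicate 2 or 5, 2 rose. Without wild-type replicate 4, 2 fell, and without Bach2-deficient replicate 1, 5 fell. Over these 10 fits 12.5% to 17.1% of all genes rose and 7.63% to 15.4% fell, with the lowest shares without Bach2-deficient replicate 2 and the highest share fallen without replicate 1 of that group. Every change given is on the log2 scale, with positive values for higher levels in Bach2-deficient tumors.

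A missed threshold does not show that levels were equal, so the 95% intervals of the changes were read as well. For 33 of the 42 members the interval lay within 0.5 of zero on the log2 scale, a change of less than 1.41-fold either way. Among all genes 32.6% had an interval that narrow, and 23.2% of those above the dimmest 30%. The members varied little between arrays of a genotype, with a median within-group SD of 0.142 against 0.266 over all genes. Of the members that did not pass, 4 had an interval reaching past 0.5: Psmd7, Psmg2, Psmg3 and Psme3. The members were bright on the array, 27 of 42 above the 90th percentile of mean log2 value, and 2 (Psma8 and Psmb11) fell in the dimmest 30% of genes. Their intervals and SDs were not compared with those of equally bright genes.

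The genotypes did not overlap for 8 of the 42 members (19.0%), close to the share of all genes (18.9%). In 7 of them the Bach2-deficient arrays were higher, where 11.2% of all genes were, and in 1 they were lower, where 7.67% of all genes were. Psma2 and Psmb3 were in this group without passing the test. Psma2 read 11.62 to 11.79 on the wild-type arrays and 11.84 to 11.99 on the Bach2-deficient ones.

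**Figure D1:**
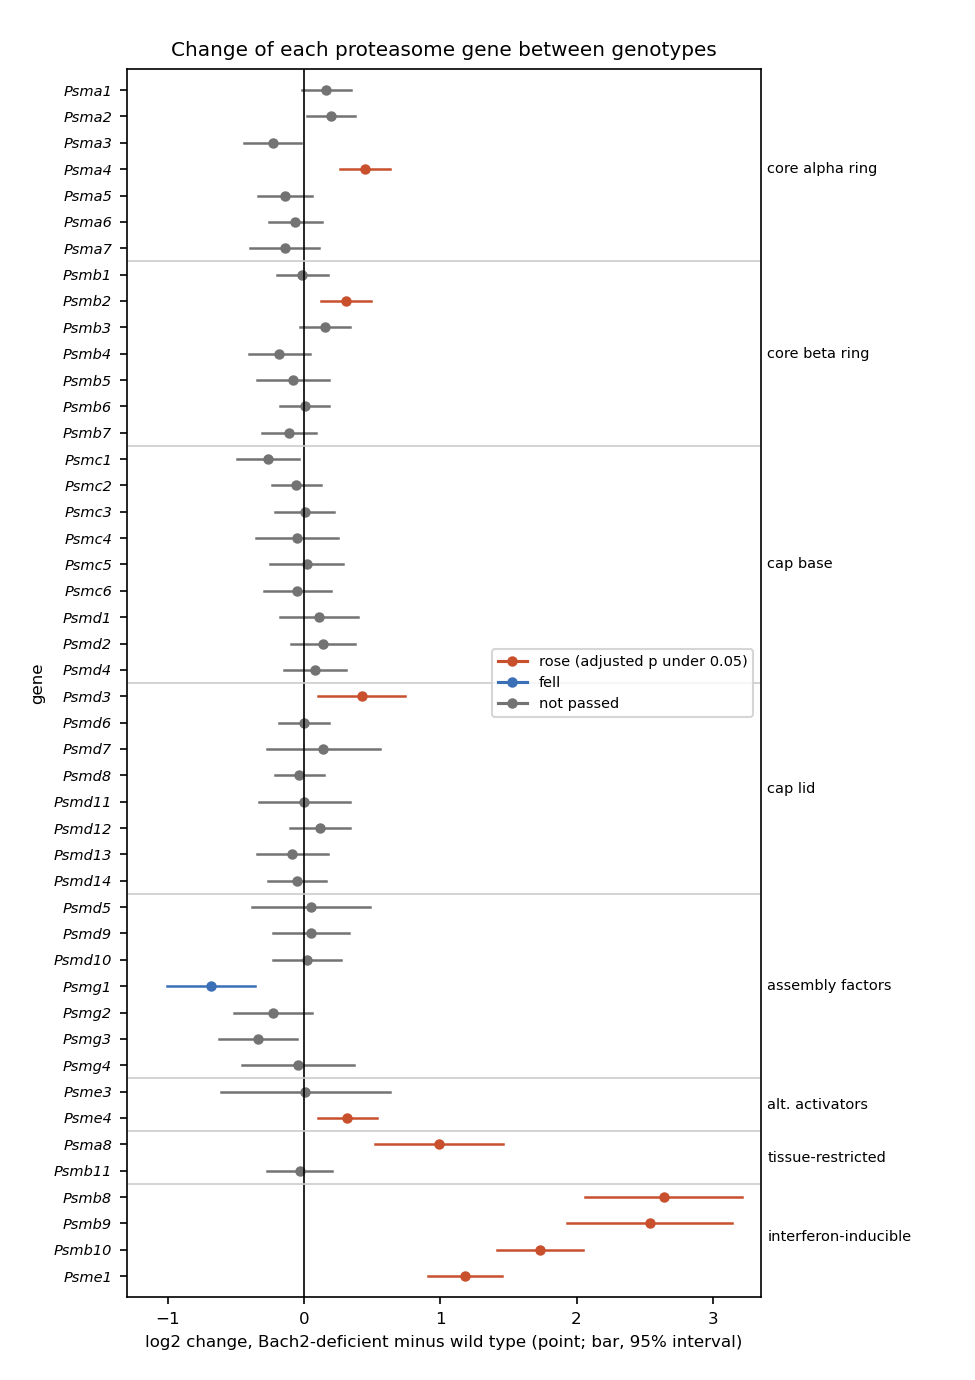
Log2 change of each of the 42 constitutive proteasome genes and of 4 interferon-inducible ones, Bach2-deficient minus wild type (x axis), with 95% intervals as bars. Points are red where the gene rose, blue where it fell and grey where it did not pass; the constitutive genes lie between -0.68 and 0.99 and the inducible ones between 1.19 and 2.64.

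The catalytic subunits come first, because each constitutive one has an inducible counterpart. Psmb5 (chymotrypsin-like activity), Psmb6 (caspase-like) and Psmb7 (trypsin-like) are exchanged for Psmb8, Psmb9 and Psmb10. The 150 bases before the start of Psmb5 (chr14:54617996-54618145, minus strand), Psmb8 (chr17:34198045-34198194, plus strand), Psmb6 (chr11:70525207-70525356, plus strand) and Psmb9 (chr17:34187331-34187480, minus strand), from RefSeq on GRCm38.p6, show the 2 pairs for which both genes had an entry. Capitals mark the antioxidant response element core TGACNNNGC in Psmb5 and Psmb6, the interferon-γ-activated site TTCNNNGAA in Psmb8 and a CCAAT box (read as ATTGG) in Psmb9.
Psmb5: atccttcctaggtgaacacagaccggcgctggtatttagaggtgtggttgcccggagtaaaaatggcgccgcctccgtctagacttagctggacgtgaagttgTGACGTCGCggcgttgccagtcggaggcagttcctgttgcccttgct
Psmb8: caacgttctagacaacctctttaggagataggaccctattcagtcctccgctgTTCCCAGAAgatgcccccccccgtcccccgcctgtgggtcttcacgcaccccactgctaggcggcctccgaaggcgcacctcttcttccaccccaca
Psmb6: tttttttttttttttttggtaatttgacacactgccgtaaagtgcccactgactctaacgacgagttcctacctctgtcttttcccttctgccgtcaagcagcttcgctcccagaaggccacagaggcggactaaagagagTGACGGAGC
Psmb9: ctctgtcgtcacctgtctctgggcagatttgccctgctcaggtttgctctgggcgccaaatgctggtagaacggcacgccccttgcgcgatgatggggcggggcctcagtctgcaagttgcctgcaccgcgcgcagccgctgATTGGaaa

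Motifs were searched on both strands in the 250 bases before each start, and 34 of the 42 members had an entry. The antioxidant response element core, which transcription factors of the NRF family bind together with small MAF proteins, was in 5 members (Psmb5, Psmb6, Psmc6, Psmd12 and Psmd9). They held it in 5 of 36 promoter entries (13.9%), where 10.2% of all 32851 entries did. The longer recognition element of MAF and BACH factors, 1 strand of which contains that core, was in 0 of the 36 and in 0.134% of all entries. CCAAT boxes, bound by NF-Y, were in 13 of the 36 (36.1%) against 33.8% of all. The interferon-γ-activated site was in 1 (Psmg1; 2.78% against 7.02%), and an element of interferon regulatory factors, GAAA runs set NN apart, in 3 (Psmb3, Psmd4 and Psmd9; 8.33% against 2.98%). The site TGACTCA of AP-1 factors, which overlaps the longer element, was in 1 (Psmd9; 2.78% against 4.46%). Of the 4 inducible genes, 1 (Psmb8) held the interferon-γ-activated site. The element of interferon regulatory factors and the antioxidant response element core were each in 0 of the 4. Such matches describe letters and not binding.

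Psmb5 read 11.69, 11.51, 11.61, 11.57 and 11.75 (log2) in wild-type replicates 1 to 5 and 11.95, 11.44, 11.48, 11.47 and 11.39 in the Bach2-deficient ones. Replicate 1 of the Bach2-deficient tumors was the highest of all 10, and the other 4 lay below the lowest wild-type array. The change was -0.08 (SE 0.12, interval -0.35 to 0.18, limma adjusted p = 0.629). Without that replicate it was -0.18, and it turned to 0.17 with the melanocyte markers as a covariate.

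Psmb6 read 12.35 to 12.55 on the wild-type arrays and 12.39 to 12.61 on the Bach2-deficient ones, with a change of 0.01 (interval -0.17 to 0.19). Psmb7 read 11.84 to 12.14 and 11.80 to 12.02, with a change of -0.11 (interval -0.31 to 0.09). Both genes overlapped between the genotypes and neither passed.

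The inducible counterparts behaved otherwise. Psmb8 read 8.35, 9.79, 8.77, 9.47 and 9.22 in the wild-type tumors and 11.33, 12.03, 11.71, 12.03 and 11.70 in the Bach2-deficient ones. On its brightest probe set it rose by 2.64 (6.23-fold, SE 0.26, limma adjusted p = 0.000207). Psmb9 rose by 2.54 (5.80-fold), Psmb10 by 1.73 (3.32-fold) and Psme1, a chain of the interferon-inducible activator ring, by 1.19 (2.27-fold), each with no overlap between the genotypes. Psme2, its partner chain, had only a probe set shared with another gene and is not analysed here.

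The unequal change within each pair was tested on the difference between the genes within an array. Psmb8 minus Psmb5 ran from -3.34 to -1.72 on the wild-type arrays and from -0.63 to 0.59 on the Bach2-deficient ones. The mean was 2.72 higher in the Bach2-deficient tumors (exact 2-sided permutation p = 0.00794, the smallest that 5 against 5 arrays allow, also after adjustment over the 3 pairs). Psmb9 minus Psmb6 ran from -4.57 to -2.87 and from -1.50 to -0.67, a difference of 2.53. Psmb10 minus Psmb7 ran from -2.41 to -1.87 and from -0.86 to 0.04, a difference of 1.84. Each had the same exact permutation p of 0.00794. The gap between the genotypes in each inducible gene was wider than the whole range of its constitutive partner. This p thus followed from the values of the single genes and is no separate evidence. Probe sets differ in affinity, so these values say that the genes of a pair changed unequally and not which share of particles held which subunit. The pairs kept their direction in all 15 alternatives computed for each, with differences from 1.95 to 3.10, 2.17 to 2.69 and 1.28 to 2.02. The lowest for Psmb8 minus Psmb5 (1.95) came with the mean of all probe sets. Psmb5 changed by -0.08 there too, so the size of the Psmb8 rise depends on the probe sets used. In the 10 that left out 1 array, direction and smallest possible p were fixed in advance, because the groups did not overlap. Array weights, the replicate block and the added terms were not permutation tests. The highest differences of 3.10 and 2.02 came with a term for Xist, high or low, and rest on Bach2-deficient replicate 2 alone. In bulk tumors more cells of a type and more RNA per cell cannot be told apart.

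**Figure D2:**
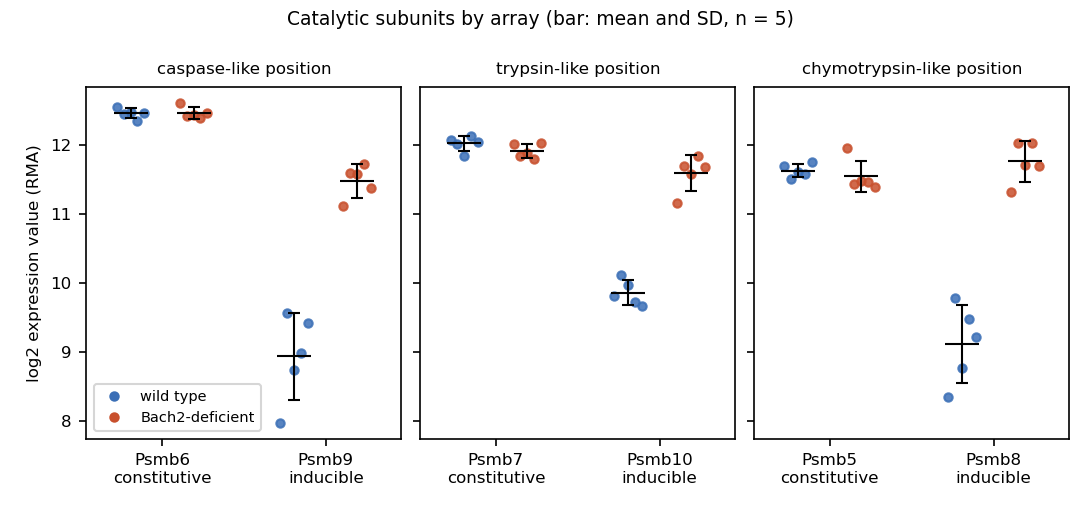
Log2 values of the 3 constitutive catalytic subunits and their inducible counterparts on each array (points; y axis, RMA log2 value), wild type in blue and Bach2-deficient in red, with the group mean and SD (n = 5). Psmb6, Psmb7 and Psmb5 overlap between the genotypes, whereas Psmb9, Psmb10 and Psmb8 do not; heights of different genes cannot be compared.

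In the alpha ring of the core, 1 of 7 genes rose (14.3%, against 16.3% of all genes) and 0 fell (against 12.4%). The median change of the ring was -0.06. Psma4 read 11.42, 11.37, 11.34, 11.33 and 11.47 in the wild-type tumors and 11.77, 11.90, 11.72, 11.82 and 11.99 in the Bach2-deficient ones. It rose by 0.45 (1.37-fold, SE 0.08, limma adjusted p = 0.00316), with no overlap. It was called in each of the 10 fits that left out 1 array, but not with the melanocyte covariate (0.43, adjusted p = 0.114). Nor was it called when Xist, high or low, was a term (0.51). Only Bach2-deficient replicate 2 had high Xist like the wild-type arrays, so every change given with the Xist term rests on that 1 array. The neighbours of Psma4 in the ring spread around zero. Psma1 (0.16), Psma2 (0.20), Psma5 (-0.14), Psma6 (-0.06) and Psma7 (-0.14) did not pass, and Psma3 had the lowest value of the ring at -0.23 (interval -0.44 to -0.02, adjusted p = 0.0932). In limma with trended robust moderation Psma3 fell (adjusted p = 0.0395) and Psma2 rose (adjusted p = 0.0330). Under array weights Psma3 fell (-0.27, adjusted p = 0.0319) and Psma2 rose (0.22, adjusted p = 0.0487). Psma3 also fell without Bach2-deficient replicate 1 (-0.28, adjusted p = 0.0413).

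The 250 bases before the start of Psma4 (chr9:54950609-54950858, plus strand), the member above the dimmest 30% that rose most, held none of the motifs searched. Those of Psmg1 (chr16:95990961-95991210, minus strand), the member that fell, held 1 interferon-γ-activated site, in capitals.
Psma4: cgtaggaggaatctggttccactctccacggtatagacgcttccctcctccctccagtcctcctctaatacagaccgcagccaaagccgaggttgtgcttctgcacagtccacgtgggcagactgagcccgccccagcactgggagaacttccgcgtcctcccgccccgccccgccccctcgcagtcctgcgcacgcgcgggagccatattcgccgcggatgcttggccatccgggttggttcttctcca
Psmg1: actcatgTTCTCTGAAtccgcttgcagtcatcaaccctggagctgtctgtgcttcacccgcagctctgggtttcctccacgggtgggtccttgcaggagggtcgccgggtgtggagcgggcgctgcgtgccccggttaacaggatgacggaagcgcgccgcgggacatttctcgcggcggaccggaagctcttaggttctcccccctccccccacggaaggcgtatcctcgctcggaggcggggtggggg

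In the beta ring, 1 of 7 genes rose (14.3%, against 16.3% of all genes), with a median change of -0.01. Psmb2, a subunit without a cutting site, read 10.84, 10.80, 10.75, 10.80 and 10.89 in wild type and 11.01, 11.22, 10.99, 11.20 and 11.19 in Bach2-deficient tumors. Its rise of 0.31 (1.24-fold, SE 0.08, limma adjusted p = 0.0199) was lost without Bach2-deficient replicate 2 (0.28, adjusted p = 0.0584), 4 (0.29, adjusted p = 0.0559) or 5 (0.29, adjusted p = 0.0515). Quantile normalization repeated (0.23, adjusted p = 0.0558), the replicate block (adjusted p = 0.0509), the Xist term (0.40, adjusted p = 0.129) and the melanocyte covariate (0.22, adjusted p = 0.346) also ended this limma call for Psmb2. Psmb1 (-0.01), Psmb3 (0.15) and Psmb4 (-0.18) did not pass.

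The base of the cap had 0 of 9 genes called (percent called among all genes, 28.7%). The 6 ATPases, which turn ATP into the force that unfolds substrates, had a median change of -0.05. Psmc1 had the lowest value at -0.26 (interval -0.49 to -0.04, limma adjusted p = 0.0787), and it fell without Bach2-deficient replicate 1 (-0.34, adjusted p = 0.0135). With all arrays, Psmc1 also fell in limma under quantile normalization repeated (-0.34, adjusted p = 0.0316) and array weights (-0.32, adjusted p = 0.0208). Psmc2 (-0.06), Psmc3 (0.00), Psmc4 (-0.05), Psmc5 (0.02) and Psmc6 (-0.05) lay closer to zero. The scaffold genes Psmd1 (0.11) and Psmd2 (0.14) and the ubiquitin receptor gene Psmd4 (0.08) did not pass either.

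In the lid, 1 of 8 genes rose (12.5%, against 16.3% of all genes), with a median change of 0.00. Psmd3 read 9.09, 9.11, 8.42, 8.66 and 9.08 in wild type and 9.27, 9.29, 9.21, 9.35 and 9.36 in Bach2-deficient tumors. The groups did not overlap, but the wild-type arrays spread over more than the Bach2-deficient ones, with replicates 3 and 4 low. Its rise of 0.42 (1.34-fold, SE 0.14) had a limma adjusted p of 0.0499, at the edge of the threshold. The call held in 3 of the 10 fits without 1 array. It was lost without wild-type replicate 3 (0.31) or 4 (0.37) and without any of Bach2-deficient replicates 1 to 5 (0.41 to 0.44, adjusted p up to 0.103). Median centring, quantile normalization repeated, trended robust moderation, the replicate block, the Xist term and the melanocyte covariate ended it as well (0.30 to 0.44, adjusted p from 0.0594 to 0.355). Psmd14, the lid enzyme that cuts off ubiquitin, differed by -0.05 (interval -0.26 to 0.16). Psmd6 (0.00), Psmd7 (0.14), Psmd8 (-0.03), Psmd11 (0.00), Psmd12 (0.12) and Psmd13 (-0.08) did not pass.

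Core and cap differed little in their shifts. The mean of the core genes minus that of the cap genes, per array, ran from 0.89 to 1.03 in wild type and from 0.89 to 0.99 in Bach2-deficient tumors. The core had a median change of -0.04 with 2 of 14 genes risen (14.3%), and the cap 0.00 with 1 of 17 (5.88%). Of all genes, 16.3% rose. These are descriptions without a test.

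The assembly factors included the member that fell. Psmg1 encodes a chaperone that pairs with the Psmg2 product to build the alpha ring. It read 9.62, 8.99, 8.97, 9.39 and 8.96 in wild type and 8.68, 8.33, 8.46, 8.59 and 8.46 in Bach2-deficient tumors. All Bach2-deficient arrays lay below all wild-type ones, and it fell by 0.68 (1.61-fold lower, SE 0.15, limma adjusted p = 0.00671). The call held in each of the 10 fits without 1 array (-0.74 to -0.57) and was lost with the Xist term (-0.86, adjusted p = 0.0720) and the melanocyte covariate (-0.52, adjusted p = 0.229).

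The other core chaperone genes also had negative changes without passing: Psmg2 (-0.23, adjusted p = 0.208), Psmg3 (-0.33, adjusted p = 0.0771) and Psmg4 (-0.04, adjusted p = 0.882) in limma. Psmg3 fell without wild-type replicate 4 (-0.41, adjusted p = 0.0363), and Psmg2 and Psmg3 fell without Bach2-deficient replicate 1 (-0.32 and -0.42). With all arrays, Psmg3 also fell in limma under quantile normalization repeated (-0.44, adjusted p = 0.0380) and array weights (-0.41, adjusted p = 0.0201). The 3 cap chaperone genes lay near zero, Psmd5 at 0.05, Psmd9 at 0.05 and Psmd10, which encodes gankyrin, at 0.02. The factors had a median change of -0.04 in all. Psmg1 to Psmg4 had one of -0.28 and Psmd5, Psmd9 and Psmd10 one of 0.05, a difference not tested.

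The alternative activators bind the core in place of the cap, mainly in the nucleus. Psme4 read 10.45, 10.43, 10.59, 10.74 and 10.72 in wild type and 11.00, 10.83, 10.89, 10.77 and 11.03 in Bach2-deficient tumors. Its rise of 0.32 (1.25-fold, SE 0.10, limma adjusted p = 0.0344) was lost when its 6 probe sets were averaged (0.23, adjusted p = 0.282). It was also lost in 7 of the 10 fits without 1 array: wild-type replicate 1, 2 or 3 or Bach2-deficient replicate 1, 2, 3 or 5 (0.28 to 0.34, adjusted p up to 0.0823). Median centring, quantile normalization repeated, the replicate block, the Xist term and the melanocyte covariate ended it too (0.23 to 0.49, adjusted p from 0.0528 to 0.42). Psme3 had the widest spread of the members. It read 10.23, 9.92, 9.89, 11.55 and 10.51 in wild type, replicate 4 standing high, and 10.29 to 10.58 in Bach2-deficient tumors. Its change of 0.01 had an interval from -0.61 to 0.63, which takes in changes of over 1.41-fold in either direction.

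The tissue-restricted members were dim. Psma8 encodes an alpha subunit of the testis, and it read 3.73 to 4.62 in wild type and 4.76 to 5.61 in Bach2-deficient tumors. It rose by 0.99 (SE 0.21, limma adjusted p = 0.00682) with no overlap, and the call held without any 1 array but not with the Xist term (0.69, adjusted p = 0.270) or the melanocyte covariate (0.82, adjusted p = 0.210). Its wild-type mean of 4.18 lies under 4.98, the upper edge of the dimmest 30%. The table has no detection calls, so the size of this rise is not exact. Psmb11, the beta subunit of the thymic cortex, read 3.33 to 3.77 across all arrays and changed by -0.03.

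**Figure D3:**
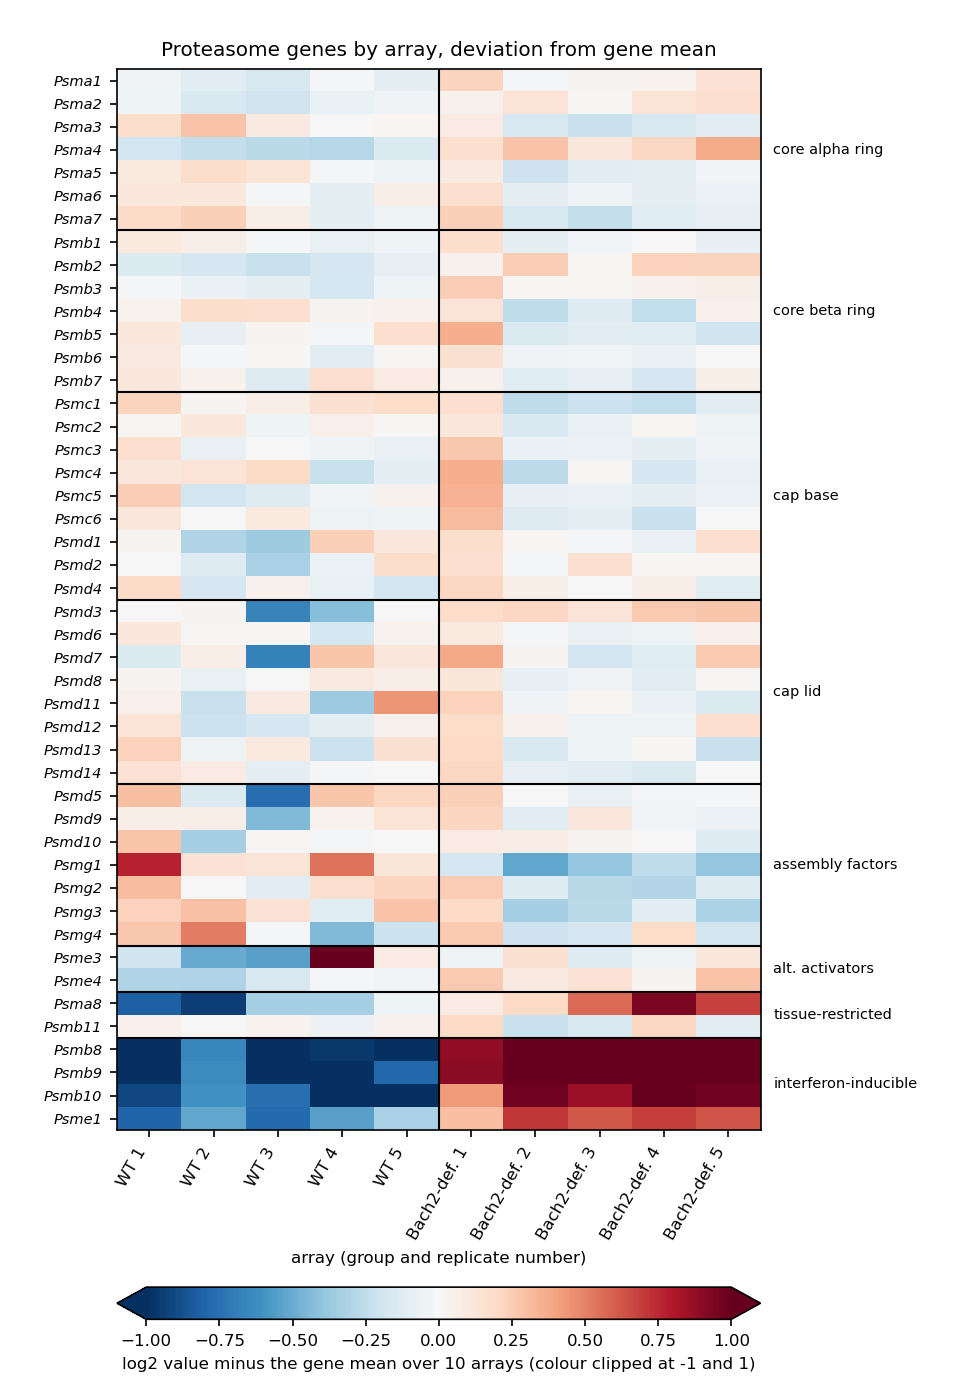
Log2 value of each proteasome gene on each array minus its mean over the 10 arrays (colour, clipped at -1 and 1), grouped by part, wild type left and Bach2-deficient right. The constitutive genes are pale in nearly every row, Bach2-deficient replicate 1 is the highest of its group for 33 of 42, and the 4 inducible genes divide the genotypes.

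One array stood out among the Bach2-deficient tumors. Replicate 1 had the highest value of its group for 33 of the 42 members and the highest of all 10 arrays for 18. Its mean over the members was 10.92, against 10.68 to 10.75 on the other 4 Bach2-deficient arrays and 10.63 to 10.82 in wild type. The same array had the highest mean of the melanocyte markers in its group (12.08; the others 11.37 to 11.73, wild type 11.94 to 12.23), the lowest mean of the leukocyte markers (9.29; the others 10.02 to 10.87) and the highest mean of the proliferation markers (11.13; the others 10.21 to 10.57). Their part in the proteasome values was not tested. Without this array 3 members rose (Psma4, Psmb2 and Psma8) and 5 fell (Psma3, Psmc1, Psmg1, Psmg2 and Psmg3), and the median change was -0.06. Of all genes, 17.1% rose and 15.4% fell without it.

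**Figure D4:**
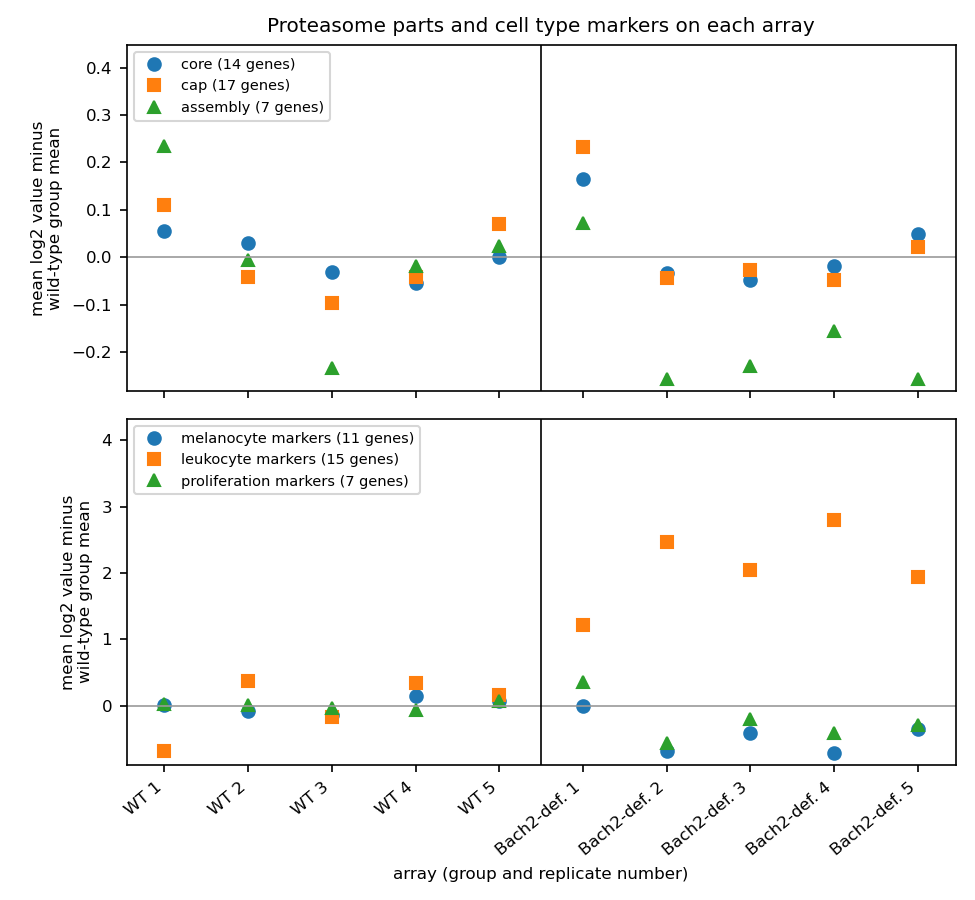
Mean log2 value of the core, cap and assembly genes (top) and of melanocyte, leukocyte and proliferation markers (bottom) on each array, minus the wild-type group mean (y axis, log2). Bach2-deficient replicate 1 is the highest of all arrays for core and cap and lies nearest to wild type in melanocyte and leukocyte markers within its group.

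Some other features of the arrays moved with genotype. Leukocyte markers rose (13 of 15; array means 7.39 to 8.44 in wild type and 9.29 to 10.87 in Bach2-deficient tumors) and 4 of 11 melanocyte markers fell. Red cell markers fell (3 of 5, list mean 2.83 lower, with no overlap). Of 7 fibroblast markers 3 fell, and of 7 endothelial ones 2 fell and 1 rose. Of 6 skeletal muscle markers 1 fell (16.7%), and of 7 proliferation markers 1 (14.3%). Among all genes 16.3% rose and 12.4% fell, so the muscle and proliferation counts lie near that share. Array means of the fibroblast, endothelial, muscle and proliferation lists overlapped between the genotypes. The B cell markers Ms4a1 (-0.08) and Cd79a (-0.01) did not pass. Bach2 itself read 5.93 to 7.78 in wild type and 4.96 to 6.37 in Bach2-deficient tumors, with overlap. The poly-A spike controls averaged 12.13 in wild type and 10.03 in Bach2-deficient tumors without overlap. Xist was high on 5 wild-type arrays and 1 Bach2-deficient array (replicate 2) and low on the other 4. With a term for it, 0 members were called in limma, and 0 with the melanocyte covariate, where 5.66% and 1.53% of all genes rose and 2.13% and 0.638% fell. Changes fitted with the Xist term compare Bach2-deficient replicate 2 alone with wild type, so calls lost there cannot show what Xist accounts for. The part of these features in the changes of the members was not tested.

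The genes around the proteasome were read from lists. Of 13 measured cofactors and ubiquitin shuttles, 0 passed (percent called among all genes, 28.7%). Their median change was 0.12, with a range from -0.32 (Txnl1) to 0.56 (Ubqln2). Among them Pomp, the maturation factor of the core, changed by 0.18 (limma adjusted p = 0.0885), Psmf1, an inhibitor of the core, by 0.50 (adjusted p = 0.0756) and the lid component Sem1 by -0.27 (adjusted p = 0.102). The ubiquitin-trimming enzyme genes Uchl5 (0.04) and Usp14 (0.07) lay near zero. A list of 8 measured genes held those of the transcription factor NRF1, of the NF-Y chains and of proteins that act on NRF1. From this list 3 rose (37.5%, against 16.3% of all genes) and 0 fell (against 12.4%), with a median of 0.21. Those that rose included Nfya (0.79, SE 0.17, limma adjusted p = 0.00628) and Nfyb (0.40), which encode chains of NF-Y. The third was Ngly1 (0.71), which encodes the glycosidase that processes NRF1. Nfe2l1, which encodes NRF1, changed by -0.27 (adjusted p = 0.25) and Vcp by 0.14 in limma. Of 6 ubiquitin genes listed, 1 (Uba6, an activating enzyme; 0.44, adjusted p = 0.0567) had a probe set of its own symbol.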

How the data were processed

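RNA of 10 tumors was measured on 1-colour Affymetrix arrays, and the deposited values are log2 expression levels that the authors computed, with RMA and Partek per the submitters' processing notes (versions not given in the sources used here). RMA subtracts background, equalises the distributions of all arrays and combines the probes of a set, which can hide a shift shared by most genes. The values were used as deposited.

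Of 45101 probe sets, 34945 had 1 gene symbol in the platform annotation (932 several, 9160 none, 64 controls). Each gene was represented by the probe set with the highest mean over the 10 arrays. The 42 members had 91 such probe sets, 24 members more than 1. The model was limma 3.58.1 (lmFit and eBayes, 2-sided; R 4.3.3) over all genes, genotype as the single factor, with Benjamini-Hochberg adjustment over 18193 genes. A gene rose or fell at an adjusted p under 0.05. The fit was tried on simulated data with independent noise and planted changes larger than that of any member. That trial does not test the calls given here. Catalytic pairs were compared by exact permutation. The number of arrays limits the precision.

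Members, gene lists and alternatives were chosen with earlier results of these data known. The named genes were the catalytic subunits, the highest and lowest change of each part, all called members, the tissue-restricted members and called genes of the related lists, up to 4 a list; others were named after their values were seen. Promoters came from RefSeq (GRCm38.p6). Alternatives were mean probe sets, a filter on dim genes, 2 normalizations, trended moderation, array weights, a replicate block, an Xist term, a melanocyte covariate and leaving out each array.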

Additional observations from a re-analysis of the deposited data

Results flagged for a closer look

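Of 90 groups of 5 values checked (42 members and 3 pair differences in each genotype), 8 held 1 value far from the rest, and chance gives about 5% of groups such a gap. Bach2-deficient replicate 1 stood high in 6 of them. It read 12.65 for Psma6 (the others 12.39 to 12.44), 12.72 for Psmb3 (12.49 to 12.54) and 11.95 for Psmb5 (11.39 to 11.48). It read 12.40 for Psmc3 (12.05 to 12.10), 10.41 for Psmc5 (lowest of the others 9.97) and 10.03 for Psmd5 (9.72 to 9.79). The genes share this array, so the 6 gaps are not independent. Wild-type replicate 1 read 12.31 for Psmc3 (the others 12.07 to 12.13), and wild-type replicate 3 read 8.08 for Psmd9 (8.55 to 8.66), the only low value of the 8.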

How the results depend on the processing

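The number of members that rose (5) was 3 with median centring, 2 with quantile normalization repeated and 2 with the replicate block, 6 under array weights and 0 with the Xist term or the melanocyte covariate. It was 4 with mean probe sets or without the dimmest 30% of genes and 5 with trended robust moderation. The number that fell (1) was 3 with quantile normalization repeated, 2 with trended robust moderation, 4 under array weights and 0 with either of those terms, and 1 in the others. Without the dimmest 30%, 23.2% of the 12735 genes that remained rose and 16.4% fell. Of all genes, 14.6% to 19.2% rose and 11.6% to 17.7% fell under the other settings without the 2 terms. Both shares were highest under array weights. With the Xist term 5.66% rose and 2.13% fell, and with the covariate 1.53% and 0.638%. Without 1 array, 2 to 5 members rose and 1 to 5 fell. The median change moved to 0.12 with the covariate. The replicate numbers need not pair the samples, since same-numbered arrays correlated at 0.01 to 0.32 in their deviations from the group means and 2 of 5 wild-type arrays correlated best with their own number.

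Of 321 values of named members under the alternatives, 251 kept direction and side of the threshold, 39 lost the call and 6 gained one. The remaining 25 changed sign, and none of these had been called. Psmb5 (0.17), Psmb7 (0.058) and Psmb4 (0.00196) did so with the covariate, as did Psmb11 (0.038). Psmb6 did with median centring (-0.0035), array weights (-0.023) and the Xist term (-0.034), and ranged from -0.030 to 0.031 without 1 array. Psmd9 did with mean probe sets (-0.13), quantile normalization (-0.089), array weights (-0.012) and the Xist term (-0.083), and ranged from -0.050 to 0.10 without 1 array. Psme3 did with mean probe sets (-0.043), median centring (-0.00014) and quantile normalization (-0.094), and ranged from -0.12 to 0.29 without 1 array. Psmb11 did with quantile normalization (0.074), and ranged from -0.086 to 0.022 without 1 array. The cause was not tested.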

Other observations

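Probe sets of 1 member did not always point the same way. Of 24 members with more than 1 probe set, 14 had probe sets of both signs, and 0 were called in opposite directions over all probe sets. For Psmg2, the probe set that stands for the gene changed by -0.23 (limma adjusted p = 0.238 over all probe sets), whereas another, with a mean of 5.55, rose by 0.37 (adjusted p = 0.0416). For Psma6, the bright probe set changed by -0.06, whereas another, with a mean of 4.80, rose by 0.94 (adjusted p = 0.0357). The 3 probe sets of Psmd7 differed by 0.14, -0.55 and -0.69 without passing, and the 3 of Psmc6 by -0.05, -0.34 and -0.47.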
